A study of Cicer arietinum with 8 samples.

Results

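The response of the chickpea shoot to salt was measured as the difference between 2 shoot libraries of Cicer arietinum genotype ICC4958, both from 10-day-old seedlings. One library came from shoots of seedlings held for 5 h in 150 mM NaCl, and the other from shoots of control seedlings held in water for the same time. The comparison took every annotated gene model, meaning a locus that carries a gene ID and not only a locus number, with at least 1 FPKM in salt-stressed or control shoot. FPKM corrects the number of sequenced fragments for exon length and for the size of the library, so levels of different genes can be set side by side. Of the 27248 annotated gene models in the deposited tables, 16044 met this minimum. The 3 gene models nearest above it reached 1.000 to 1.002 FPKM in the higher shoot library, and the 3 nearest below it reached 0.996 to 0.997 FPKM. The series also holds desiccated and cold shoots (4 ± 1 °C) and the 4 matching root libraries. These too came from 10-day-old seedlings with a time of 5 h, and the salt-stressed root likewise had 150 mM NaCl. There are 8 libraries in all, with 1 library per tissue and treatment. No difference here therefore has a replicate check or a p-value, and all comparisons are of size alone. Whether a library pooled several plants is not given in the sources used here.

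Salt in the root medium first makes water harder to take up, so that the shoot meets a water deficit, and sodium and chloride build up in the leaves later. Plants answer with abscisic acid signalling, with osmolytes and protective proteins of the late embryogenesis abundant type, with ion transport into the vacuole and with slower growth. These are general properties of salt stress in plants and not results of these libraries. The gene IDs of the tables could not be tied to any of these functions: of 27571 distinct IDs, 0 were found in the RefSeq annotation of the chickpea genome used here, and the deposited tables pair IDs with no names. Gene models are therefore described by their levels and behaviour, few are given by ID, and the shoot label was not checked against marker genes.

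The shoot libraries were close in scale. The 16044 gene models had a median log2 change of -0.02, salt-stressed minus control, and quartiles of -0.38 and 0.37. Gene models summed to 658780 FPKM in salt-stressed shoot and 652296 FPKM in control shoot, and 15623 and 15606 of them reached 1 FPKM. Among 777 gene models under 0.3 FPKM in both, where values move in steps of single fragments, the most common ratio of the values put the depth of the salt-stressed library at 0.993 times that of the control, and 23.7% of these gene models lay within 5% of that ratio.

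Salt-stressed shoot differed from control shoot at a minority of gene models, and the larger the difference, the more it lay on the side of higher levels. A gene model was counted as changed where log2(FPKM + 1) differed by at least 1, which is 2-fold on this scale. By this measure 1049 gene models were higher in salt-stressed shoot and 725 were lower, 6.54% and 4.52% of those compared and 11.1% together. A further 10016 gene models, 62.4%, lay within 0.5 log2 units of the control. At 4-fold the balance was 211 higher and 19 lower (1.32% and 0.118%, together 1.43% of those compared), so that 91.7% of these gene models were higher, against 59.1% at 2-fold. At 8-fold there were 58 higher and 2 lower, at 16-fold 21 higher and 0 lower, and at 32-fold 6 higher and 0 lower. These are levels in whole tissue, in which a change in the number of cells of a type and a change in RNA per cell cannot be told apart.

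**Figure D1:**
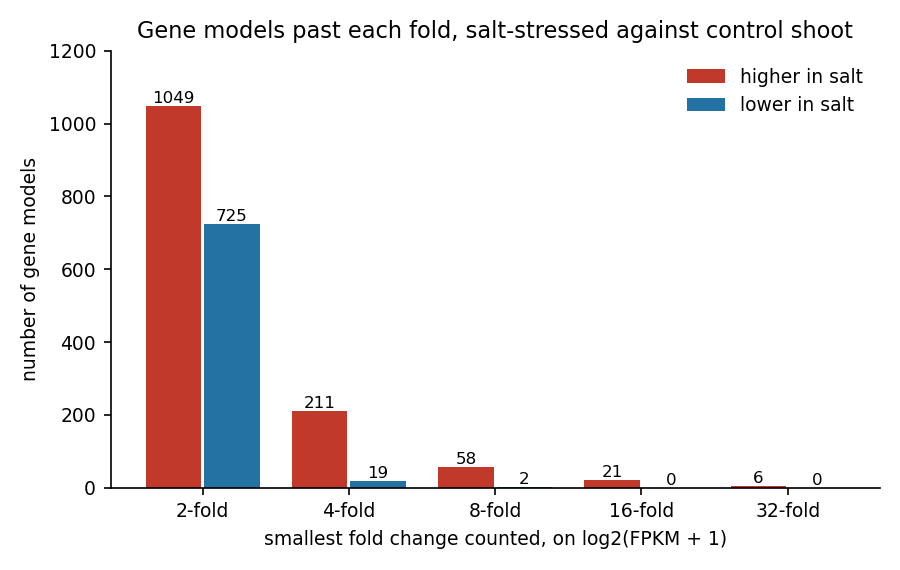
Number of annotated gene models (vertical axis) higher (red) and lower (blue) in salt-stressed than in control shoot by at least the fold on the horizontal axis, on log2(FPKM + 1), from 1 library each. Higher and lower gene models number 1049 and 725 at 2-fold and 211 and 19 at 4-fold, and no lower one is left at 16-fold.

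The gene models that were lower in salt-stressed shoot thus formed a shallow group. Their median log2 change was -1.20, and the 5th to 95th percentiles ran from -1.79 to -1.01. The higher gene models had a median of 1.42 and a longer tail, with percentiles of 1.03 and 3.07. The 3 higher gene models just inside the 2-fold line had log2 changes of 1.000 to 1.002 and the 3 just outside it 0.999 to 1.000, so counts at this line can move with small errors.

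The excess of large increases was present at each level of expression. Gene models were split by their mean level over salt-stressed and control shoot, taken on the log scale. Under 2 FPKM there were 12 gene models at least 4-fold higher and 0 lower, from 2 to 10 FPKM 72 higher and 11 lower, from 10 to 50 FPKM 97 higher and 7 lower, and over 50 FPKM 30 higher and 1 lower. The share of gene models at least 2-fold higher was 8.08% under 2 FPKM and 5.85% over 50 FPKM, and the share at least 2-fold lower was highest from 2 to 10 FPKM, at 5.99%.

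**Figure D2:**
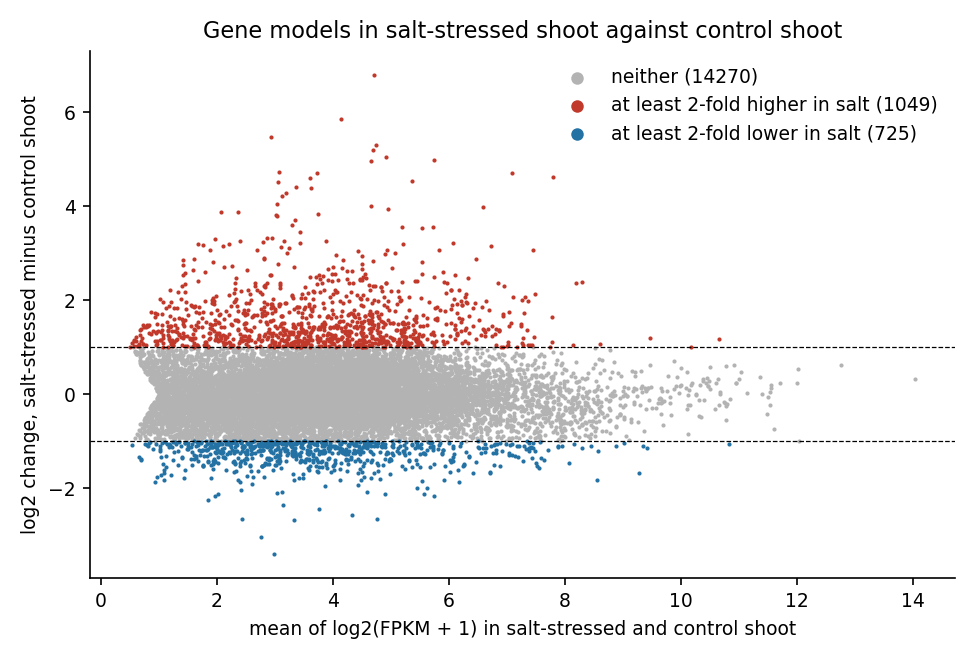
Each point is 1 of 16044 gene models, with its mean log2(FPKM + 1) over salt-stressed and control shoot on the horizontal axis and the log2 change, salt-stressed minus control shoot, on the vertical axis. Dashed lines mark 2-fold; the upper cloud reaches 6.79 and the lower one -3.40.

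The balance at 4-fold can be set beside that of the other treatments, each against the control of its tissue. In shoot 3.39% of the gene models compared were at least 4-fold apart under desiccation and 0.308% under cold, and 64.6% and 93.9% of these were higher in the stressed shoot. In root 6.86% were at least 4-fold apart under salinity, 4.29% under desiccation and 4.33% under cold, and 66.2%, 58.8% and 52.7% of these were higher in the stressed root. The shoot comparisons share the control library, so a control value that was low by chance enters each of them, and the differences between these shares were not tested. Shoot cold rests on few gene models, 46 higher and 3 lower. A rise of the higher share with the fold was not limited to salt-stressed shoot. From 2-fold to 16-fold it went from 47.9% to 93.3% in desiccated shoot and from 55.8% to 83.1% in salt-stressed root. In desiccated root it went from 58.8% to 70.8% and in cold root from 51.9% to 60.5%. Cold shoot had no gene model at 16-fold.

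The leading increases were taken from gene models with 1 ID on 1 locus and at least 10 FPKM in the higher shoot library. Ca_13297 had the largest, a log2 change of 6.79. It stood at 275 FPKM in salt-stressed, 451 FPKM in desiccated, 11.95 FPKM in cold and 1.48 FPKM in control shoot. In root it stood at 126 FPKM under salinity, 244 FPKM under desiccation, 36.1 FPKM under cold and 2.55 FPKM in the control. Every stressed library was above the control of its tissue for this gene model, with cold the lowest of the stresses in both tissues.

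Ca_04777 came next, with a log2 change of 5.84, and had a narrower pattern. It stood at 133 FPKM in salt-stressed, 85.5 FPKM in desiccated, 12.3 FPKM in cold and 1.33 FPKM in control shoot. In root it reached 19.3 FPKM under salinity and 0.710 FPKM under desiccation. The cold and control roots had it listed at 0. Salinity gave its highest level in both tissues, whereas Ca_13297 was higher under desiccation.

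The 12 largest increases had log2 changes from 4.51 to 6.79. Their levels ran from 38.7 to 696 FPKM (median 161) in salt-stressed shoot, against 0.143 to 25.7 FPKM (median 2.38) in control shoot. In desiccated shoot the same 12 had 14.5 to 1744 FPKM (median 173), and 5 of them were higher in salt-stressed than in desiccated shoot. In cold shoot they had 1.47 to 137 FPKM (median 15.5), below the salt-stressed level in 12 of 12. Since they were picked for a high value in the salt-stressed library and a low one in the control, these orders are a description. Their own log2 changes were 3.24 to 7.51 under desiccation and 1.11 to 2.51 under cold, both against the same control library as salinity.

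In root most of these 12 were scarce. In the root control 9 of 12 were under 1 FPKM, 4 of them listed at 0, with a median of 0.313 FPKM. Of the gene models less than 2-fold apart in shoot, 92.1% reached 1 FPKM in the root control. In salt-stressed root the 12 had a median of 7.68 FPKM and 4 of 12 were still under 1 FPKM. Of the 12, 8 reached 1 FPKM in salt-stressed or control root. Of these 8, 7 were at least 2-fold higher with salt and 0 were lower. Over all gene models compared in root, 14.9% were higher and 11.8% were lower. Most of these 7 reached 1 FPKM in salt-stressed root alone, so the minimum admitted them only where they were high, and their number is a description.

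**Figure D3:**
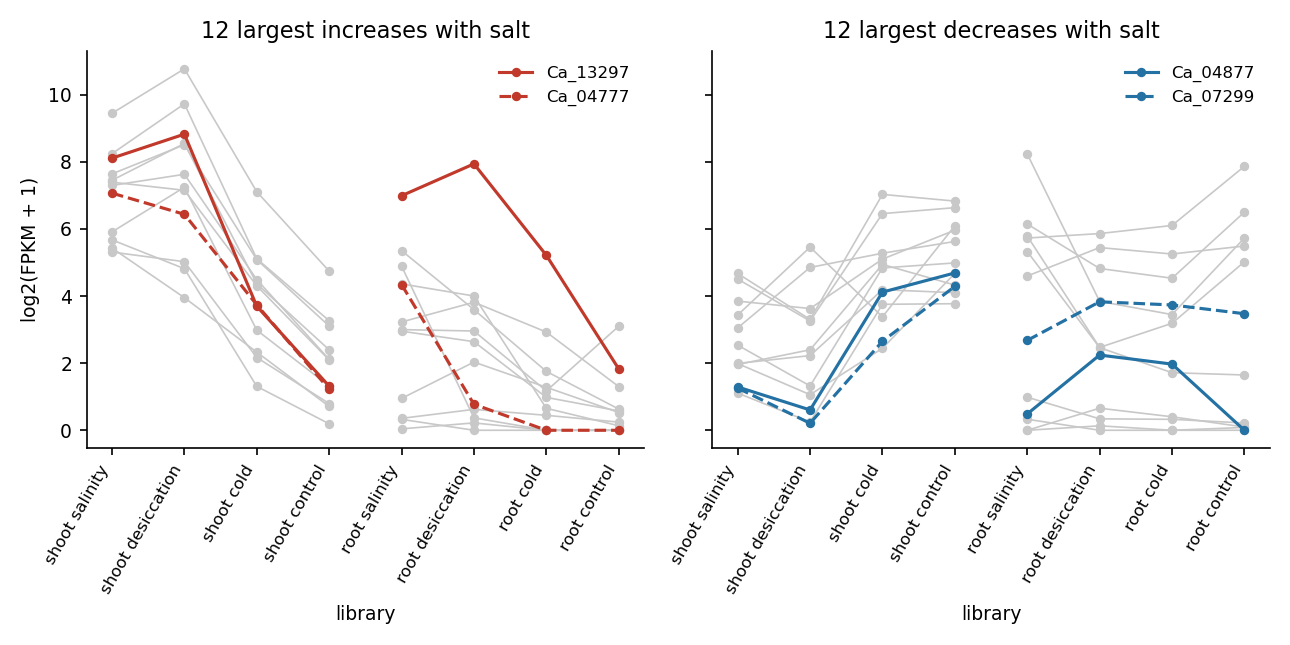
Level as log2(FPKM + 1) on the vertical axis in each of the 8 libraries on the horizontal axis, for the 12 gene models with the largest increase (left) and the 12 with the largest decrease (right) in salt-stressed against control shoot. Each line joins the values of 1 gene model within a tissue, with Ca_13297, Ca_04777, Ca_04877 and Ca_07299 in colour; increases lie well above the shoot control in salt and desiccation alike, and nearer to it in cold.

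The largest decrease was that of Ca_04877, a log2 change of -3.40. It stood at 1.45 FPKM in salt-stressed, 0.522 FPKM in desiccated, 16.3 FPKM in cold and 24.8 FPKM in control shoot. In root it stood at 0.401 FPKM under salinity, 3.73 FPKM under desiccation and 2.92 FPKM under cold, with a value of 0 listed for the control. Its root log2 changes were thus 2.24 under desiccation and 1.97 under cold, at levels below that of control shoot. Salt-stressed and desiccated shoot lay far below cold and control shoot.

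Ca_07299 followed, with a log2 change of -3.03. It stood at 1.39 FPKM in salt-stressed, 0.156 FPKM in desiccated, 5.29 FPKM in cold and 18.5 FPKM in control shoot. Its root levels were 5.40 FPKM under salinity, 13.2 FPKM under desiccation, 12.3 FPKM under cold and 10.1 FPKM in the control. All 3 stressed shoots were below the control, while in root only the salt-stressed library was.

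The 12 largest decreases had log2 changes from -3.40 to -2.11. Their levels ran from 1.15 to 24.5 FPKM (median 3.89) in salt-stressed shoot, against 12.7 to 113 FPKM (median 27.7) in control shoot. In desiccated shoot their median was 3.97 FPKM and in cold shoot 22.4 FPKM, and cold shoot was above salt-stressed shoot for 11 of the 12. These were picked for a low value in the salt-stressed library and a high one in the control, so this order too is a description. Of the 12, 7 reached 1 FPKM in salt-stressed or control root. Of these 7, 2 were at least 2-fold higher with salt and 1 was lower. Over all gene models compared in root, 14.9% were higher and 11.8% were lower, and so few members carry no result beside that.

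Some gene models crossed the 1 FPKM level. Of the 1049 higher gene models, 158 (15.1%) were under 1 FPKM in control shoot, and 11 of these were listed at 0 there, which can be a failed estimate. The 158 had a median of 3.02 FPKM in salt-stressed shoot, 33 reached 5 FPKM and 11 reached 10 FPKM, with 50.02 FPKM the highest. Of the 725 lower gene models, 64 (8.83%) were under 1 FPKM in salt-stressed shoot, 5 of them listed at 0. The 64 had a median of 2.69 FPKM in control shoot, and 3 had reached 5 FPKM and 0 had reached 10 FPKM there. No gene model with 10 FPKM or more in control shoot was thus among those under 1 FPKM in salt-stressed shoot, while 11 gene models under 1 FPKM in control shoot had 10 FPKM or more in salt-stressed shoot.

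By amount of transcript, the changes involved a modest part of the shoot's gene-model FPKM. The 1049 higher gene models held 8.31% of it in salt-stressed shoot and 2.59% in control shoot. The 725 lower gene models held 2.39% in salt-stressed shoot and 5.89% in control shoot. The 211 that were at least 4-fold higher held 2.52% in salt-stressed shoot and 0.335% in control shoot. These sets were chosen on the same libraries, so the direction of the shares follows from the choice and only their size is described. The 5 higher gene models with the largest differences in FPKM itself had 696 to 2418 FPKM in salt-stressed shoot and 25.7 to 1078 FPKM in control shoot, and the 5 lower ones had 199 to 1260 FPKM in salt-stressed shoot and 711 to 2612 FPKM in control shoot. Of these abundant lower gene models, 3 of 5 were under 1 FPKM in the root control and in each stressed root.

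The most abundant annotated gene models of salt-stressed shoot were not among the changed ones, loci without an annotated gene being left aside. Ca_07147, the most abundant gene model that did not pass 2-fold, stood at 18984 FPKM in salt-stressed, 19004 FPKM in desiccated, 18051 FPKM in cold and 15134 FPKM in control shoot, against 24.7 to 117 FPKM in the root libraries. Its log2 change with salt was 0.33. The 5 gene models of this kind with the highest levels in salt-stressed shoot had log2 changes of 0.23 to 0.61. A ranking on the salt-stressed library favours gene models that were higher in it, so the sign of these changes is no result. The 10 most abundant annotated gene models, changed or not, were taken in each library separately. They held 8.52% of gene-model FPKM in salt-stressed shoot and 7.77% in control shoot, and the 2 lists need not hold the same gene models.

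The sets chosen on the shoot libraries also differed in root, whose libraries took no part in the choice. In the root control the 1049 gene models higher in salt-stressed shoot had a median of 14.4 FPKM, the 725 lower ones 6.62 FPKM, and the 14270 that were neither 12.4 FPKM. In salt-stressed root the medians were 28.03, 5.45 and 13.5 FPKM in that order. The higher set held 16.3% of gene-model FPKM in salt-stressed root and 13.0% in the root control, which is more than its 8.31% in salt-stressed shoot. The lower set held 2.26% in salt-stressed root and 3.69% in the root control. The shoot-higher set thus had a median above that of the other sets in unstressed root, while most of the 12 with the largest increases were under 1 FPKM there. Those 12 were picked in part for a low value in control shoot. Of the 211 at least 4-fold higher in salt-stressed shoot, 76.8% reached 1 FPKM in the root control, with a median of 7.98 FPKM. For the 1049 higher gene models this share was 87.5%, and for the 14270 that were neither it was 92.1%.

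In the shoot, the sets had medians under desiccation close to those under salt. The higher set had medians of 22.6 FPKM in salt-stressed, 22.7 FPKM in desiccated, 9.65 FPKM in cold and 6.53 FPKM in control shoot. The lower set had medians of 6.42 FPKM in salt-stressed, 5.83 FPKM in desiccated, 13.6 FPKM in cold and 17.1 FPKM in control shoot. The set that was neither had medians between 13.3 and 13.9 FPKM in the 4 shoot libraries. Sums lay further apart than medians. The higher set summed to 68140 FPKM in desiccated and 54771 FPKM in salt-stressed shoot, and the lower set to 12934 and 15734 FPKM. Salt-stressed and control values chose these sets, so only the desiccated and cold values are independent of the choice, and changes of all stresses are taken against the same control library.

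**Figure D4:**
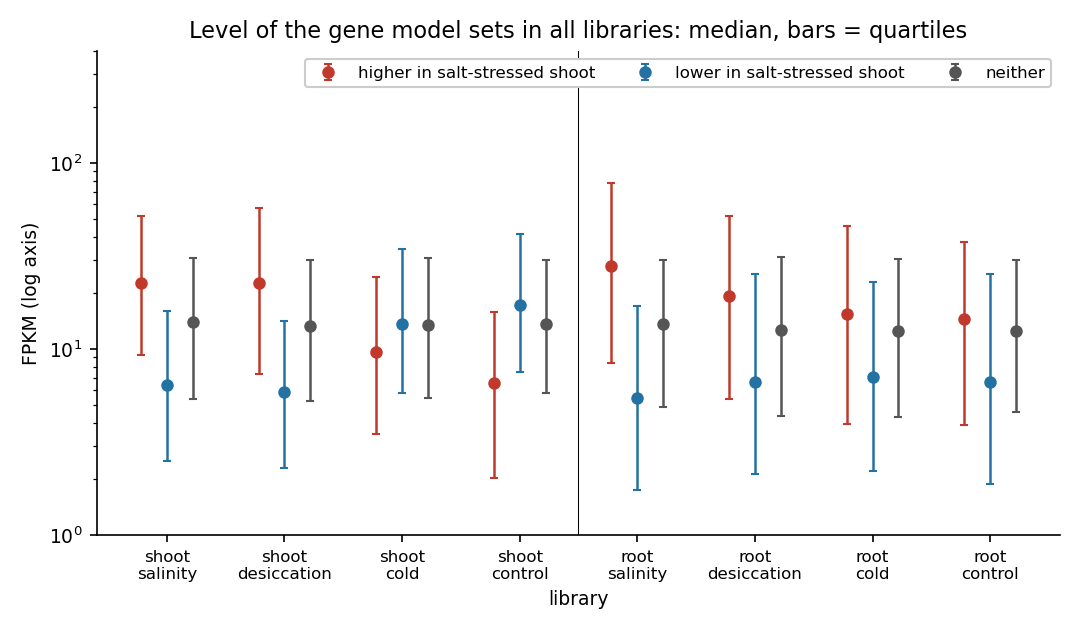
Median level in FPKM (log axis) of the gene models higher (1049), lower (725) or neither (14270) in salt-stressed against control shoot, in each of the 8 libraries; bars run from the lower to the upper quartile over gene models. Salt-stressed and desiccated shoot lie together, with medians of 22.6 and 22.7 FPKM for the higher set, and cold shoot lies nearer to control shoot.

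The changes with salt in shoot were last set beside those in root, from libraries that the shoot comparison did not use. Of the 1049 gene models higher in salt-stressed shoot, 449 (42.8% of the shoot list and 18.7% of the root list of 2401) were also higher in salt-stressed root, and 89 (8.48%) were lower there. Of the 725 lower in salt-stressed shoot, 143 (19.7% of the shoot list and 7.52% of the root list of 1901) were also lower in salt-stressed root, and 44 (6.07%) were higher there. In root 14.9% of the gene models compared there were higher with salt and 11.8% were lower, 26.7% in all. The shoot lists also hold gene models under 1 FPKM in both root libraries. Without those, 45.7% of the shoot-higher ones were higher in root, against 14.0% of all gene models compared in both tissues. Likewise 23.0% of the shoot-lower ones were lower in root, against 10.9%. The median root change with salt was 0.78 log2 units over the higher set, -0.27 over the lower set and 0.00 over all gene models compared in shoot. Of the 211 at least 4-fold higher in salt-stressed shoot, 105 were at least 2-fold higher and 13 lower in salt-stressed root, and 25 were under 1 FPKM in both root libraries. The root changes of the shoot-higher set were smaller under the other stresses, with medians of 0.25 under desiccation and 0.07 under cold, and these share the root control with the salt comparison. The difference between the root responses to the stresses was not tested.

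**Figure D5:**
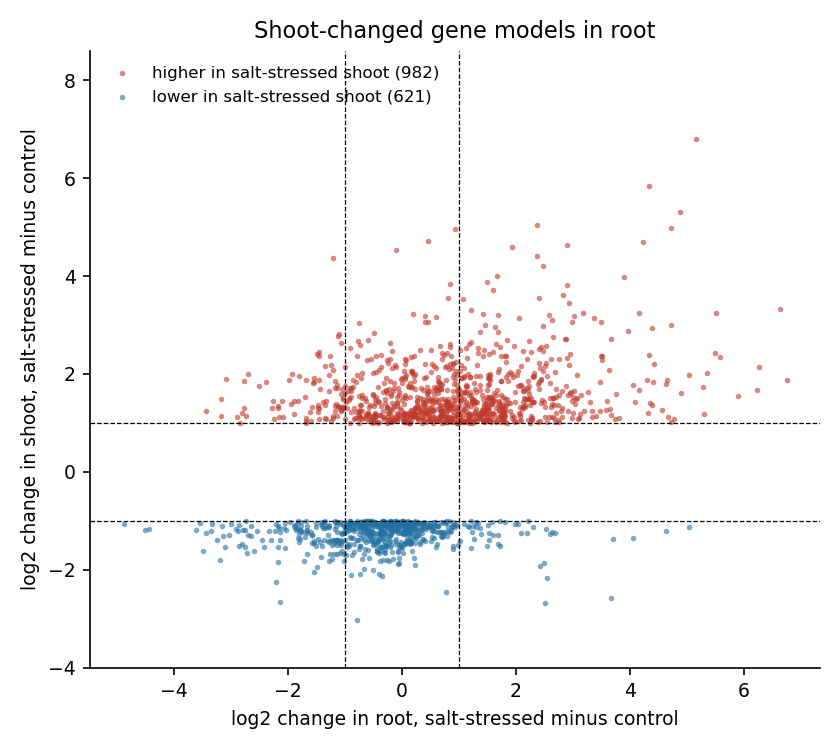
Log2 change with salt in root (horizontal axis) and in shoot (vertical axis), stressed minus control, for gene models changed at least 2-fold in shoot and with at least 1 FPKM in salt-stressed or control root. Of the points in red (higher in shoot), 449 lie right of the right dashed line and 89 left of the left one; of those in blue (lower in shoot), 44 lie right and 143 left.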

How the data were processed

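The deposited values are FPKM, 1 table per library. Per the series' design text, the authors cleaned reads with NGS QC Toolkit, aligned them by TopHat to an annotated chickpea genome and obtained FPKM from Cufflinks. Tool versions and the build are not given in the sources used. Each table holds 34193 loci, 27248 of them annotated; 448 carry several IDs, and 282 carry an ID found on more than 1 locus, so reads may be merged or split there.

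Groups came from sample titles. Changes are differences of log2(FPKM + 1), which understates changes of weakly expressed gene models. Fragment counts and so the counting error of single values are unknown. Gene models were chosen for naming by the largest change, the largest difference in FPKM, crossing 1 FPKM, or abundance without a 2-fold change; lists by gene function were not used, since no ID was matched. The members and rules were chosen with earlier results of these data known. The counting was tested on simulated data. Python 3.11.15, numpy 2.4.6, pandas 2.3.3 and matplotlib 3.10.9 were used.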

Additional observations from a re-analysis of the deposited data

Results flagged for a closer look

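Between salt-stressed and control libraries, 133 gene models differed in opposite directions in shoot and root, by at least 2-fold in each tissue. Of these, 89 were higher in shoot and lower in root, and 44 were lower in shoot and higher in root. Among the gene models with at least 1 FPKM in salt-stressed or control root, 9.06% of the shoot-higher ones were lower there, against 10.9% of all gene models compared in both tissues, and 7.09% of the shoot-lower ones were higher there, against 14.0%. Both shares lie below that background, so the counts show no excess of opposite changes and are not read as a result about these gene models. The difference was not tested, since each tissue has 1 library per condition.

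The most abundant locus without an annotated gene, which took no part in the comparison, stood at 258229 FPKM in salt-stressed, 486024 FPKM in desiccated, 243544 FPKM in cold and 155475 FPKM in control shoot. It was above the control shoot in all 3 stressed shoots.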

How the results depend on the processing

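The median ratio, quantile and equal-sum scalings, a minimum of 5 FPKM, and 1 ID on 1 locus only left the counts of higher and lower gene models within 1.5 times, and the share of higher ones between 57.2% and 61.3%. A pseudocount of 0.1 gave 1388 higher and 1190 lower gene models (53.8% higher), a pseudocount of 5 gave 581 and 259 (69.2%), a 4-fold threshold 211 and 19, and all loci together 1499 and 1463 (50.6%). Dropping the minimum cannot alter a count, since 2-fold on this scale already needs 1 FPKM. The settings for the 4-fold counts were chosen after seeing the data: a pseudocount of 0.1 gave 393 higher and 83 lower, a pseudocount of 5 gave 97 and 3, and all loci 325 and 123, so the higher ones prevailed in each. Gene models moved the same way in shoot and root numbered 592, and 860 with a pseudocount of 0.1, 281 with a pseudocount of 5 and 67 at 4-fold. Those moved in opposite directions numbered 133, and 264 with a pseudocount of 0.1, 42 with a pseudocount of 5 and 3 at 4-fold. The causes of these moves were not tested, beyond the stricter threshold itself. The median log2 change stayed between -0.05 and 0.00. Over 5 alternatives the log2 change ran from 5.43 to 7.44 for Ca_13297, from 4.44 to 6.54 for Ca_04777, from -4.01 to -2.21 for Ca_04877 and from -3.64 to -1.88 for Ca_07299. No paired analysis was possible because each group has 1 library and no result comes from a test; no library could be left out for the same reason.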

Other observations

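Loci without an annotated gene had another balance than the annotated gene models. Of 5294 such loci with at least 1 FPKM in salt-stressed or control shoot, salt-stressed shoot had 450 higher and 738 lower by 2-fold or more. At 4-fold there were 114 higher and 104 lower. Annotated gene models held 26.8% of the summed FPKM of all loci in salt-stressed shoot and 23.8% in control shoot. What these loci are was not analysed here.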
